A study of Mus musculus with 52 samples.

Results

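The genes described here are 41 components of the Wnt pathway, chosen by symbol as ligands, receptors, signal transducers, feedback regulators, secreted inhibitors and target genes. RNA was sequenced from haematopoietic stem cells (HSC) and from bone marrow stroma of mice, and 29 of the 41 genes were among the 13566 genes of the HSC table and 41 of 41 among the 15168 genes of the stroma table. The HSC table did not list Wnt4, Wnt5a, Wnt5b, Fzd2, Axin2, Nkd1, Nkd2, Rnf43, Rspo3, Dkk2, Dkk3 or Wif1. The HSC were sorted as SLAM-LKS cells (a stem cell surface phenotype), and the stroma was what magnetic beads left as CD45- and Ter119- marrow cells. Mice were injected with vehicle, the EP3 agonist sulprostone, the EP4 agonist rivenprost, both agonists, or misoprostol 30 min before total-body irradiation (TBI) with 853 cGy, and marrow was taken 1 h after TBI. Stroma was also taken from irradiated mice given PGE (taken, from the series title, to be dmPGE2, a long-lived form of prostaglandin E2), as well as from sham-irradiated mice given vehicle or PGE. There were 13 groups of 4 mice, balanced for sex (2 males, 2 females), and each mouse gave 1 library, which makes 20 HSC and 32 stroma libraries. The labels used here state no dose, strain or age, and the compounds were therefore compared at unknown relative doses. All HSC groups were irradiated.

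Wnt ligands are secreted lipid-modified proteins that bind Frizzled receptors and the co-receptors Lrp5 and Lrp6. Binding recruits the Dishevelled proteins and stops the destruction complex of Axin, Apc and Gsk3b from marking beta-catenin (Ctnnb1) for degradation, after which beta-catenin acts with TCF/LEF factors on target genes such as Axin2, Lgr5, Ccnd1 and Myc. Frizzled receptors also signal without beta-catenin, through the planar polarity and calcium branches. In marrow, Wnt signals are known for their part in osteoblast formation and in the upkeep of stem cells, and prostaglandin E2 is known to raise beta-catenin activity in stem cells through cAMP.

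The stretches of DNA before the starts of Fzd5, Fzd7 and Dact1 are shown because these genes carry the receptor and inhibitor results given further on. They are the 250 bases upstream of the RefSeq start in build GRCm38.p6, read 5′ to 3′ on the gene's strand: chr1:64737751-64738000 on the minus strand for Fzd5, chr1:59481897-59482146 on the plus strand for Fzd7, and chr12:71309634-71309883 on the plus strand for Dact1. Capitals mark matches, on either strand, to the TCF/LEF words CTTTGAA, with its variants CTTTGAT, then CTTTGTA, and also CTTTGTT, or to TGACG, the core of the cAMP response element, whose full form is TGACGTCA and contains that core.
Fzd5: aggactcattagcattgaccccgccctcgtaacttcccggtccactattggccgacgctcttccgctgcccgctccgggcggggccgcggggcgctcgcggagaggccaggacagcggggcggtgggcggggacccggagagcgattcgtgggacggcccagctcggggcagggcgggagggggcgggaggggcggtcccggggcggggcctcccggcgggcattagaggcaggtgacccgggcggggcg
Fzd7: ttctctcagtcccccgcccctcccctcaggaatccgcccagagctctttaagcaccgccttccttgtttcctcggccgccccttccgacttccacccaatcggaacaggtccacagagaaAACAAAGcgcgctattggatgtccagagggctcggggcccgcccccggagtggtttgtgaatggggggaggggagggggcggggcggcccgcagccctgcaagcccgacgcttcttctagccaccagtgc
Dact1: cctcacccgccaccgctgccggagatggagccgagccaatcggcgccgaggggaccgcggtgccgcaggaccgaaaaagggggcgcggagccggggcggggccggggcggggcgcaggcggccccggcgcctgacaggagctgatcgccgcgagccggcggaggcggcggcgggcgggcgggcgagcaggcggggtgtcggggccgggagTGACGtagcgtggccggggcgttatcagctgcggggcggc
The Fzd7 window held 1 TCF/LEF word, the Dact1 window held 1 TGACG core, and the Fzd5 window held none of these words. Of all 32851 RefSeq windows of the same length, 14.8% held a TCF/LEF word, 17.8% the TGACG core and 1.55% the full element. Windows were at hand for 24 of the 41 genes, 34 windows in all. A gene was counted if any of its windows matched, so the counts of genes are not on the scale of the shares per window. A TCF/LEF word stood in 5 of the 24 (Fzd7, Lef1, Tcf7l2, Wnt11 and Wnt5b), the TGACG core in 4 (Ctnnb1, Tcf7l2, Wnt10b and Wnt11) and the full element in 0. These are matches of letters and say nothing on whether a factor binds.

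The libraries held 27.4 to 49.2 M counts in HSC and 38.0 to 73.7 M in stroma. Values are given as CPM, counts per M reads of the TMM-adjusted library size, in the order of replicates 1 to 4. A gene was called changed at a Benjamini-Hochberg adjusted p under 0.05 over all genes of the table in edgeR's quasi-likelihood test. Marker genes were read beside the labels. HSC markers summed to between 1017.8 and 2083 CPM in the HSC libraries and to between 183 and 477 CPM in stroma, and the mesenchymal markers (Cxcl12, Lepr, Kitl, Adipoq, Ebf3 and Foxc1) summed to between 3589 and 19155 CPM in stroma and to at most 53.5 CPM in HSC, where 3 of the 6 were listed. In HSC, sulprostone replicate 1 stood apart, with granulocyte markers at 11701 CPM against a median of 136.4 CPM over the 20 libraries. Without it and with vehicle replicate 2 and misoprostol replicate 2 also left out, which earlier results of these data had set apart, 0 of the 29 Wnt genes passed in each of the 4 HSC comparisons. The calls over all genes then went from 2 to 0 after sulprostone and from 67 to 76 (0.56% of all genes) after rivenprost. They went from 74 to 83 (0.612%) after both agonists and from 34 to 49 (0.361%) after misoprostol. Stroma libraries also held granulocyte, erythroid and B cell markers, and in such mixed cells fewer cells of a type and less RNA per cell cannot be told apart.

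Across the comparisons with a control, the Wnt genes gave few calls. Of 403 tests of a gene in one of 11 comparisons, 8 passed the threshold, all in stroma, and they belonged to Myc, Fzd5, Fzd6 and Fzd7. The other 37 genes passed in none of the 7 stroma comparisons in this model. Calls that other models gained or lost are named beside the genes and in the closing section. In stroma, 1 of 41 passed after PGE without irradiation, where 3.76% of all genes passed, and 1 of 41 after PGE with irradiation, where 1.98% passed. After rivenprost 1 of 41 passed against 1.13% of all genes, after both agonists 3 of 41 against 3.09%, and after misoprostol 2 of 41 against 0.916%. After sulprostone 0 of 41 passed, against 0.105% of all genes, with 3 of the 41 (and 3.93% of all genes) at an unadjusted p under 0.05, and between irradiated and non-irradiated vehicle 0 of 41 passed, against 0.771%, with 6 of the 41 (and 9.19% of all genes) at an unadjusted p under 0.05. DESeq2 gave 0 calls for sulprostone, against 0.251% of all genes, and 2 calls, Lgr5 and Myc, for irradiation, against 1.64%. In HSC, edgeR called 0 of 29 in each of the 4 comparisons. There 0.0147% of all genes passed after sulprostone, 0.494% after rivenprost, 0.545% after both agonists and 0.251% after misoprostol, and 2, 4, 4 and 2 of the 29 stood at an unadjusted p under 0.05, as did 4.5%, 6.4%, 6.96% and 6.59% of all genes. DESeq2 called 1 gene, Sfrp4, in 3 of these HSC comparisons, and that gene had counts in 4 of the 20 libraries. Those were sulprostone, rivenprost and misoprostol, where DESeq2 called 0.759%, 1.72% and 1.73% of all genes. All irradiated comparisons of a fraction share the same 4 vehicle mice. In the authors' deposited table, 0 Wnt genes passed an FDR of 0.05 in HSC. There 0.0663%, 0.826%, 0.944% and 0.487% of all genes passed after sulprostone, rivenprost, both agonists and misoprostol. In stroma, 1, 2, 3, 3 and 2 Wnt genes passed after PGE without and with irradiation, rivenprost, both agonists and misoprostol. In that deposited table of the authors, 3.88%, 2.56%, 1.55%, 3.5% and 1.52% of all genes passed in these 5 comparisons.

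**Figure D1:**
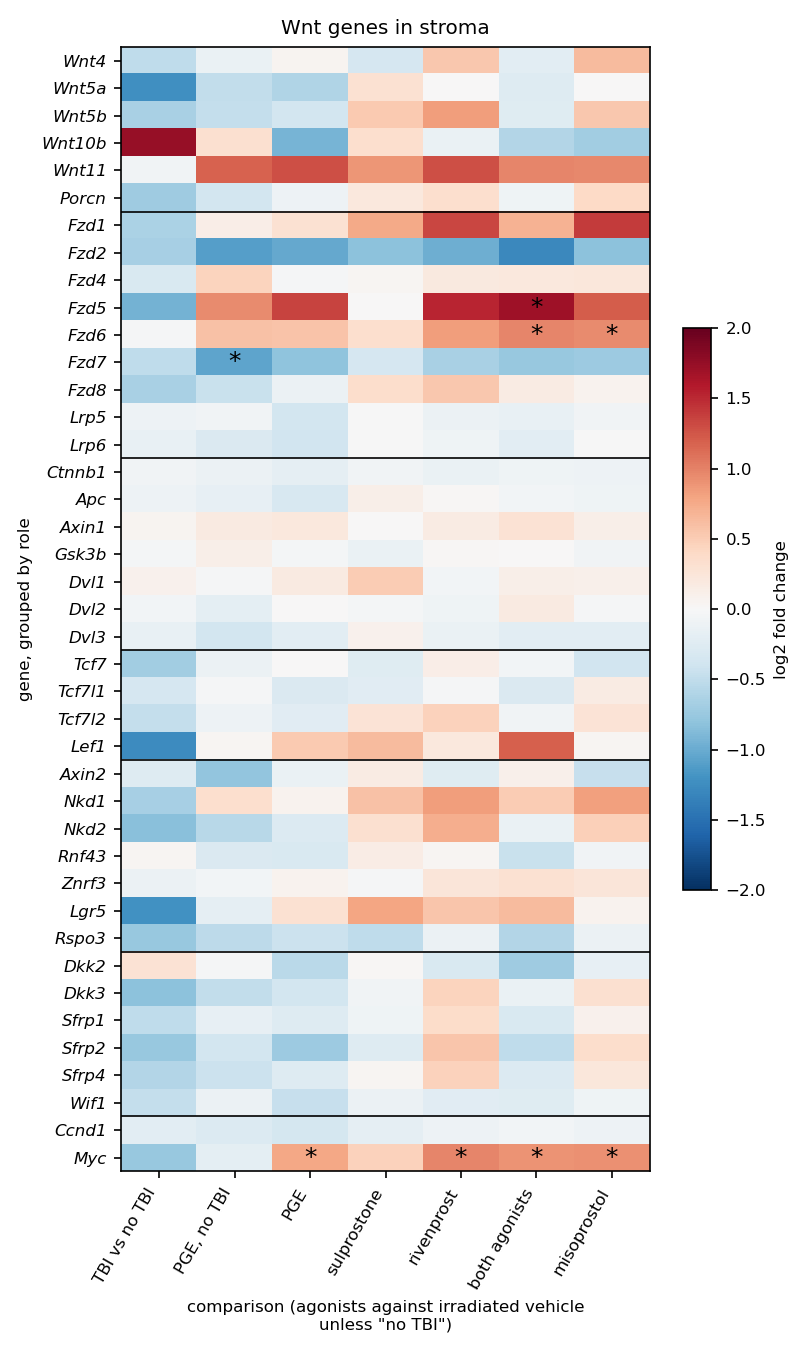
Log2 fold change of the 41 Wnt genes (rows, grouped by role) in the 7 stroma comparisons (columns), with colour from -2 (blue) to 2 (red) and a star at an adjusted p under 0.05. The 8 stars lie in the rows of Myc, Fzd5, Fzd6 and Fzd7.

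Levels per length were read in the irradiated vehicle mice, as CPM per kilobase of exon, with no test between fractions since library kits and RNA input differed. In HSC, Myc stood highest at 166 ± 48.0 (SD, n = 4), followed by Ctnnb1 at 96.9 ± 14.2, Axin1 at 16.5 ± 2.29 and Dvl2 at 16.3 ± 4.26. Axin1 and Dvl2 did not differ beyond their spread, and 18 of the 29 genes stood at 1 CPM per kilobase or more. In stroma, Sfrp4, a secreted Frizzled-related protein that binds Wnt ligands, stood at 108 ± 67.5 and Ctnnb1 at 103 ± 7.34 CPM per kilobase, within the spread of Sfrp4. Myc followed at 32.0 ± 1.65, Axin1 at 20.3 ± 0.955, Gsk3b at 15.1 ± 1.22 and Wif1, a secreted Wnt inhibitor, at 12.7 ± 6.49. The lowest was Dkk2, a Dickkopf inhibitor, at 0.107 ± 0.0447, and 32 of the 41 genes stood at 1 CPM per kilobase or more. Of the Frizzled receptors among the 41 genes, Fzd6 was the highest in HSC at 6.48 ± 1.56, and Fzd1 in stroma at 10.2 ± 5.26 CPM per kilobase. Lef1, Wnt11 and Sfrp4 had 0 counts in all 4 vehicle HSC libraries, and 3 counts in the shallowest HSC library would be 0.1096 CPM.

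The ligands passed the test in no comparison, although Wnt11 passed after PGE without and with irradiation (adjusted p = 0.0490 and 0.0487) when the mesenchymal marker sum was a covariate, an alternative added after the data were seen. Wnt4, the most abundant ligand gene per length in stroma at 7.08 ± 1.44 CPM per kilobase, ranged from 12.7 to 74.6 CPM over the 32 libraries. Wnt5a, known for signalling without beta-catenin, and its relative Wnt5b ranged from 0.589 to 7.61 and from 0.832 to 7.92 CPM in stroma. Wnt10b and Wnt11 stayed under 6 CPM in every stroma library. Porcn, the acyltransferase that attaches the lipid to Wnt ligands, ranged from 1.72 to 9.35 CPM in stroma and from 0 upward in HSC, where 2 of 20 libraries had no count.

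Among the receptors, Fzd5 rose in stroma after both agonists given together, Fzd6 after both agonists together and after misoprostol, and Fzd7 fell after PGE without irradiation. Fzd5 is a Frizzled receptor known to take part in both branches of the pathway. In irradiated vehicle stroma it stood at 28.9, 47.5, 35.1 and 37.2 CPM, and after both agonists at 118.3, 60.2, 184 and 119.3 CPM. The groups did not overlap, and every library with both agonists lay above every vehicle library. The log2 fold change was 1.70 (SE 0.41, adjusted p = 0.0185). The call ended without vehicle replicate 1 or 3 or both-agonist replicate 3, over an adjusted p range of 0.00834 to 0.0782 when each library was left out, and when only these 2 groups entered the fit (adjusted p up to 0.0509).

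After the other treatments Fzd5 did not pass. After PGE with irradiation it stood at 136.5, 117.8, 58.0 and 64.2 CPM (log2 fold change 1.35, adjusted p = 0.0778, and 0.0289 with DESeq2). After rivenprost it stood at 72.4, 123.8, 195 and 44.0 CPM, with the lowest library under the highest vehicle library (1.53, adjusted p = 0.0618, and 0.00927 with DESeq2). After misoprostol it stood at 83.1, 98.1, 91.8 and 71.4 CPM (1.21, adjusted p = 0.172, and 0.01002 in a fit of the 2 groups alone). The PGE and misoprostol libraries did not overlap with vehicle. With a block for runs of mouse numbers in place of sex (each run held 1 mouse of every group), Fzd5 passed after PGE with irradiation (adjusted p = 0.0499). Sulprostone gave 28.7, 31.5, 45.0 and 43.6 CPM, inside the range of vehicle except for replicate 1, which lay just under it. Among non-irradiated mice Fzd5 stood at 48.5, 50.3, 94.9 and 90.8 CPM with vehicle and at 142.1, 81.9, 79.7 and 238 CPM with PGE (unadjusted p = 0.0253).

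Fzd6, a Frizzled receptor known for planar polarity, was low in stroma. Irradiated vehicle libraries held 2.08, 3.40, 2.41 and 3.84 CPM, both agonists 5.27, 6.78, 5.03 and 5.94 CPM, and misoprostol 5.45, 4.83, 7.49 and 4.82 CPM. Neither treated group overlapped with vehicle. The log2 fold change was 0.97 (SE 0.22, adjusted p = 0.0127) after both agonists and 0.94 (SE 0.22, adjusted p = 0.0313) after misoprostol. The call for both agonists ended without vehicle replicate 1 or 3 or both-agonist replicate 2, and that for misoprostol without vehicle replicate 1, 2 or 3 or misoprostol replicate 1, 2 or 3, with adjusted p up to 0.0634 and 0.155. Fits of these pairs of groups alone gave up to 0.108 and 0.235. After rivenprost Fzd6 stood at 5.25, 5.83, 3.87 and 5.97 CPM, all above vehicle, without passing (0.83, adjusted p = 0.0580). It passed with the block for mouse-number runs (adjusted p = 0.0402) and with DESeq2 (0.0102). It did not pass with RLE scaling (0.0611), without the sex term (0.0545) or in a fit of the 2 groups alone (0.327). Sulprostone gave 3.73, 3.73, 3.59 and 3.69 CPM.

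Fzd7, a Frizzled receptor linked in other tissues to progenitor cells, fell after PGE without irradiation. Vehicle libraries held 24.5, 25.0, 30.2 and 64.3 CPM and PGE libraries 16.4, 13.9, 12.3 and 26.8 CPM. The groups overlapped, since PGE replicate 4 lay above vehicle replicates 1 and 2. The log2 fold change was -1.06 (SE 0.29, adjusted p = 0.0343), and the call ended without vehicle replicate 3 or 4 or PGE replicate 1, 2 or 3 (adjusted p up to 0.226), without the sex term (0.0563) and in a fit of the 2 groups alone (0.257). Vehicle replicate 4 and PGE replicate 4 also held the highest osteoblast marker sums, at 27089 and 17307 CPM against 1261 to 9641 CPM in the other 30 stroma libraries, and their part in the result was not tested. These 2 mice also bore numbers far from those of all other stroma mice, and no label says whether they were handled apart. In irradiated mice Fzd7 stood at 15.3, 38.0, 20.3 and 22.2 CPM with vehicle and at 15.6, 9.34, 12.9 and 19.8 CPM with PGE (-0.81, adjusted p = 0.147).

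**Figure D2:**
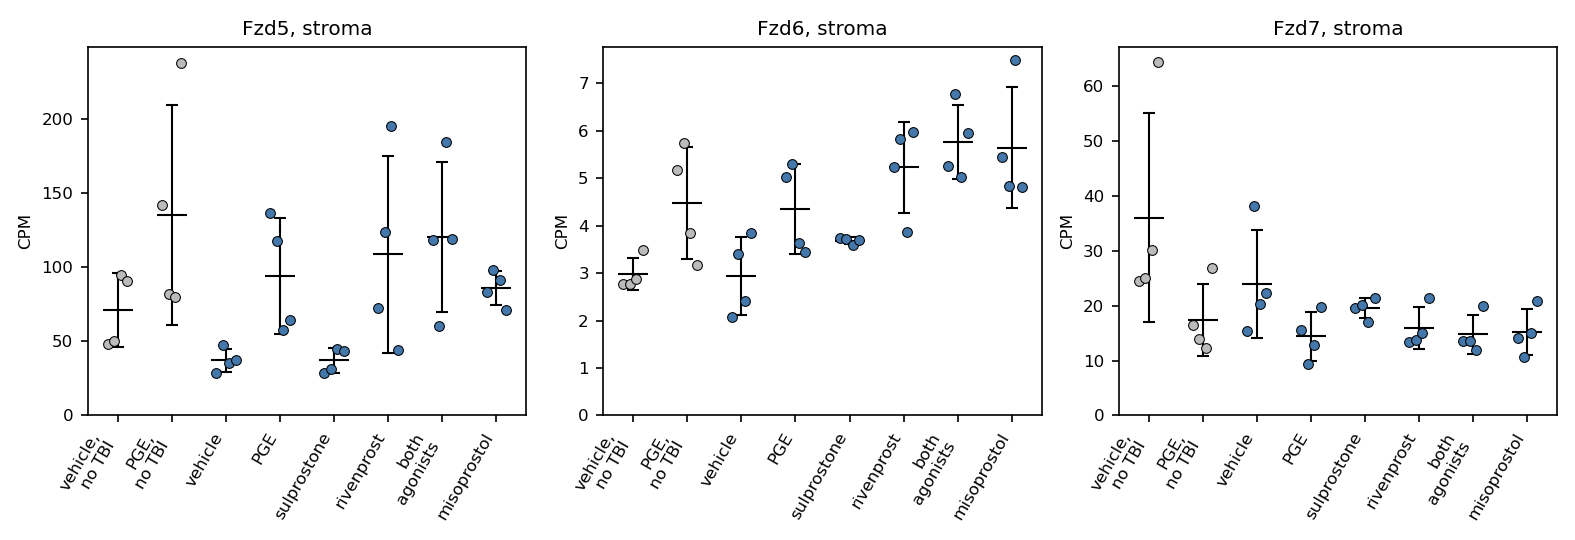
CPM of Fzd5, Fzd6 and Fzd7 in each stroma library (points, 4 per group, grey without and blue with TBI), with the mean (line) and SD (bars). Fzd5 and Fzd6 with both agonists lie above irradiated vehicle in every library, while Fzd7 overlaps between vehicle and PGE.

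The remaining receptors passed in no comparison. Fzd1 in stroma stood at 32.8, 78.7, 37.1 and 29.4 CPM with irradiated vehicle, 49.1, 150, 198 and 66.1 CPM with rivenprost, and 133.8, 172, 64.4 and 80.96 CPM with misoprostol (log2 fold changes 1.34 and 1.39, adjusted p = 0.182 and 0.154). For misoprostol it passed with DESeq2 (adjusted p = 0.0496). Fzd1 was highest in the library with the highest mesenchymal marker sum (rivenprost replicate 3, 19155 CPM), and among irradiated vehicle mice replicate 2 was highest in both, at 16216 CPM against 5326 to 8201 CPM. With this marker sum as a covariate Fzd1 passed for PGE in both settings and for rivenprost, both agonists and misoprostol, with log2 fold changes of 0.53 to 1.06 and adjusted p of 0.000262 to 0.0441. With the same covariate Fzd5 passed after PGE without and with irradiation (adjusted p = 0.00375 and 0.000457), rivenprost (0.0248), both agonists (5.03e-05) and misoprostol (0.0281). Fzd2 stood at 2.36, 2.40, 1.92 and 1.68 CPM with irradiated vehicle and at 1.82, 0.260, 0.864 and 0.870 CPM with both agonists (-1.30, adjusted p = 0.111), and passed with DESeq2 (0.0374) and with the covariate (0.0252). The co-receptors Lrp5 and Lrp6 held median levels of 46.0 and 68.5 CPM over the stroma libraries.

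In HSC, Fzd4, a Frizzled receptor known for its ligand Norrin, had no count in 3 of 4 vehicle libraries. Vehicle libraries held 3.58, 0, 0 and 0 CPM, and libraries with both agonists 20.7, 23.6, 28.5 and 10.7 CPM. Rivenprost gave 0.951, 19.1, 23.8 and 17.3 CPM, misoprostol 16.9, 8.85, 14.1 and 4.00 CPM, and sulprostone 0, 6.14, 6.0 and 2.28 CPM. The both-agonist and misoprostol libraries lay above all vehicle libraries, and the others overlapped. The fitted log2 fold change with both agonists was 4.94 (95% interval 1.46 to 8.41) and did not pass (adjusted p = 0.408). Of 8 fits that left out a library it passed in 1, without vehicle replicate 1 (adjusted p = 0.00732), and over the others the adjusted p reached 0.658. That library held all the vehicle counts, so the fit had a control with no count and its pass followed from the library removed. Fzd5 in HSC stood at 7.14, 13.7, 5.17 and 4.12 CPM with vehicle, 2.15, 3.13, 2.03 and 2.15 CPM with rivenprost, 2.00, 0.496, 0.166 and 3.44 CPM with both agonists and 0, 1.17, 1.75 and 0 CPM with misoprostol. None of these 3 treated groups overlapped with vehicle, and none passed (adjusted p = 1.00, 0.868 and 0.736). Sulprostone libraries held 0.416, 0.886, 7.31 and 3.09 CPM and overlapped with vehicle. Of the 29 genes, 5 did not overlap between both agonists and vehicle, against 4.57% of all genes. Fzd4 and Lrp5 were higher with both agonists, Fzd5, Apc and Sfrp1 were lower, and none passed. Lrp5 had a mean of 1.27 CPM with vehicle and 8.25 CPM with both agonists (log2 fold change 2.69, adjusted p = 0.461). It also lay above vehicle without overlap after rivenprost, at a mean of 6.53 CPM (2.36, adjusted p = 0.602).

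The signal transducers passed in no comparison in the model used throughout. Ctnnb1, beta-catenin itself, ranged from 290 to 430 CPM in stroma, with a median within-group coefficient of variation of 7.21%, the lowest of the 41 genes. It stood at 378, 388, 334 and 392 CPM with irradiated vehicle and at 363, 334, 290 and 333 CPM with PGE (-0.18, 95% interval -0.33 to -0.03, adjusted p = 0.219), and passed with DESeq2 (-0.22, adjusted p = 0.0166). In HSC its log2 fold change lay between 0.02 after sulprostone and 0.34 after rivenprost (adjusted p = 0.855). Axin1, the scaffold of the destruction complex, stood at 81.7, 73.01, 76.3 and 76.3 CPM with irradiated vehicle and at 97.8, 101.3, 86.9 and 89.2 CPM with both agonists, with no overlap (0.29, adjusted p = 0.114), and passed with the block for mouse-number runs (0.0315). Dvl1, a Dishevelled adaptor, stood at 20.5, 37.2, 25.2 and 32.5 CPM with sulprostone and at 20.6, 23.5, 18.8 and 17.7 CPM with vehicle (0.51, adjusted p = 0.722). Beta-catenin is regulated mainly through protein stability, which RNA does not measure.

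The TCF/LEF factors, which bind DNA with beta-catenin, passed in no comparison. Tcf7 in stroma stood at 5.22, 4.89, 4.30 and 3.57 CPM with irradiated and 6.87, 5.92, 5.54 and 11.8 CPM with non-irradiated vehicle, without overlap (-0.70, adjusted p = 0.594). Lef1 spread widely within groups, with a coefficient of variation of 56.4%. After both agonists Lef1 stood at 48.6, 62.0, 14.9 and 24.0 CPM, and after PGE without irradiation at 26.7, 105, 15.7 and 15.6 CPM. Its log2 fold change in the 7 stroma comparisons lay between -1.25 for irradiation and 1.19 for both agonists (adjusted p = 0.505 and 0.278). B cell markers summed to 892, 1100, 337 and 431 CPM in the both-agonist libraries and to 493, 1341, 359 and 670 CPM in those of non-irradiated PGE, highest in the libraries that were highest in Lef1. T and NK cell markers were highest in the same libraries. They summed to 16.2, 28.1, 9.80 and 9.95 CPM with both agonists and to 9.18, 21.2, 5.76 and 15.0 CPM with non-irradiated PGE. The part of these cells in the Lef1 levels was not tested. In HSC, 13 of 20 libraries had no Lef1 count, and the highest, 5.62 CPM, was the sulprostone library that stood apart by its granulocyte markers.

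The feedback targets gave no call. Axin2, the target most used to read beta-catenin activity, stood at 2.21, 2.96, 2.14 and 3.25 CPM in irradiated vehicle stroma. Its log2 fold change against vehicle lay between -0.47 after misoprostol (95% interval -1.14 to 0.20) and 0.16 after sulprostone (-0.51 to 0.83) in irradiated mice, and it was -0.79 after PGE without irradiation (adjusted p = 0.203). Lgr5, a receptor for R-spondins and a target gene, stood at 12.96, 9.78, 6.77 and 11.5 CPM in non-irradiated and at 3.22, 6.47, 5.34 and 3.91 CPM in irradiated vehicle stroma. The groups did not overlap, and Lgr5 did not pass (-1.20, SE 0.33, adjusted p = 0.0998), although it did with DESeq2 (0.0227) and without non-irradiated vehicle replicate 3 (0.0458). Of the 41 genes, 5 did not overlap in this comparison (1 higher and 4 lower with irradiation), against 5.64% of all genes. Rspo3, an R-spondin ligand, ranged from 3.14 to 57.6 CPM in stroma, highest in the non-irradiated vehicle library with the highest osteoblast markers. The ubiquitin ligases Rnf43 and Znrf3, which clear Frizzled receptors, and the Dishevelled-binding Nkd1 and Nkd2 passed in no comparison.

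The secreted inhibitors were uneven between libraries, and none passed in the model used throughout. Wif1 passed after rivenprost with the mesenchymal marker sum as a covariate (-0.76, adjusted p = 0.0309). Sfrp4 ranged from 80.8 to 404 CPM and Wif1 from 10.1 to 55.7 CPM over the stroma libraries. Both were highest among the irradiated vehicle mice in replicate 2, at 358 CPM and 49.6 CPM against at most 186 and 27.2 CPM in the others, the same library that held the most mesenchymal marker RNA. Sfrp1 ranged from 9.01 to 80.8, Dkk3 from 3.83 to 57.7 and Dkk2 from 0.0664 to 0.742 CPM. Sfrp2 had the largest within-group coefficient of variation of the 41 genes, 106%.

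Myc was the Wnt gene with the most calls. It is a growth-promoting transcription factor and a textbook target of beta-catenin, and is controlled by many other signals too. Irradiated vehicle stroma held 73.7, 80.2, 72.9 and 80.01 CPM, with the narrowest spread of the 8 groups. PGE libraries held 126.3, 176, 96.9 and 126.9 CPM, rivenprost libraries 107, 174, 234 and 110 CPM, both-agonist libraries 116.5, 122.97, 222 and 121.8 CPM and misoprostol libraries 122.5, 176, 166 and 125.4 CPM. Every one of these 16 libraries lay above every irradiated vehicle library. The log2 fold change was 0.77 after PGE (SE 0.19, adjusted p = 0.0304), 0.97 after rivenprost (SE 0.19, adjusted p = 0.00869), 0.90 after both agonists (SE 0.19, adjusted p = 0.00857) and 0.92 after misoprostol (SE 0.19, adjusted p = 0.0145). Sulprostone gave 82.4, 106, 130.96 and 106 CPM, also above vehicle in all 4 libraries, and did not pass (0.45, unadjusted p = 0.0254, adjusted p = 1.00).

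The Myc calls did not rest equally on the libraries. That for both agonists held without each library in turn, with adjusted p up to 0.0494. The call for PGE ended without vehicle replicate 1, 2 or 3 or PGE replicate 1, 2 or 4 (up to 0.125), that for rivenprost without vehicle replicate 3 or rivenprost replicate 3 (up to 0.0682), and that for misoprostol without vehicle replicate 2 or 3 or misoprostol replicate 2 (up to 0.0965). In fits of 2 groups alone the calls for PGE, rivenprost and both agonists ended, with adjusted p up to 0.0801, 0.157 and 0.0800, and without the sex term that for PGE ended (0.0773). With the mesenchymal marker sum as a covariate the 4 log2 fold changes lay between 0.81 and 0.92.

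Without irradiation Myc was not higher after PGE. Non-irradiated vehicle stroma held 138.3, 152, 130 and 103 CPM, and PGE 127.04, 122.9, 120 and 86.9 CPM (-0.19, adjusted p = 0.669). Irradiated vehicle thus lay below all non-irradiated vehicle libraries, with a log2 fold change of -0.75 that did not pass (SE 0.19, adjusted p = 0.0661). It passed with DESeq2 (adjusted p = 0.0159) and with the block for mouse-number runs (0.04998). The difference between the PGE changes with and without irradiation was 0.96 on the log2 scale (95% interval 0.41 to 1.52, unadjusted p = 0.00145) and did not pass over all genes (adjusted p = 0.918, with 0.0264% of all genes passing and 0 of the 41). Between PGE mice with and without irradiation 0 of the 41 genes passed in edgeR or DESeq2. Of all genes, 0.0461% passed in edgeR and 0.125% in DESeq2. In edgeR 5 of the 41 (and 5.86% of all genes) stood at an unadjusted p under 0.05.

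**Figure D3:**
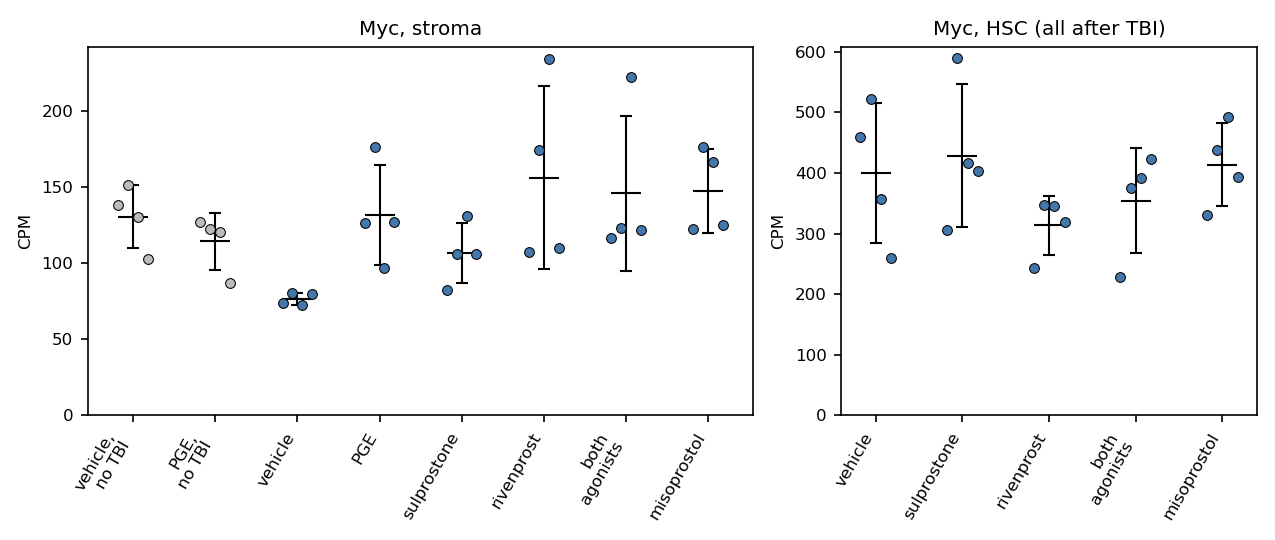
CPM of Myc in each stroma library (left, 8 groups, grey without and blue with TBI) and each HSC library (right, 5 irradiated groups), with the mean (line) and SD (bars). Irradiated vehicle stroma lies between 72.9 and 80.2 CPM, below every library given PGE, rivenprost, both agonists or misoprostol, while the HSC groups overlap.

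In HSC, Myc overlapped between vehicle and every treated group. Vehicle libraries held 459, 522, 358 and 260 CPM, sulprostone 305, 589, 417 and 403, rivenprost 244, 347, 346 and 319, both agonists 228, 375, 391 and 423, and misoprostol 331, 437, 492 and 394 CPM. The log2 fold change lay between -0.36 after rivenprost (95% interval -0.82 to 0.11) and 0.09 after sulprostone (-0.38 to 0.55). Ccnd1, the cyclin D1 gene and a further textbook target, passed in neither fraction. It ranged from 14.3 to 37.3 CPM in stroma. In HSC it stood at 11.04, 35.2, 33.1 and 30.3 CPM with vehicle and at 50.9, 39.8, 49.4 and 28.0 CPM with both agonists (0.66, adjusted p = 0.778).

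The compounds were also compared with each other. Over the 6 HSC pairs 0 of 174 tests passed in edgeR, where 0.102% of the tests of all genes did, with 5 of the 174 (and 4.74% of the tests of all genes) at an unadjusted p under 0.05, and DESeq2 gave 3 calls, all of Sfrp4. Over the 10 stroma pairs 1 of 410 tests passed, where 0.3% of the tests of all genes did. The stroma call was Fzd5, higher with both agonists than with sulprostone alone (1.70, SE 0.41, 95% interval 0.86 to 2.53, adjusted p = 0.0293, where 1.67% of all genes passed). The groups did not overlap. The call ended in 6 of 8 fits that left out a library, namely sulprostone replicate 1, 2 or 4 or both-agonist replicate 1, 3 or 4 (adjusted p up to 0.143). Adding sulprostone to rivenprost gave a difference of 0.17 for Fzd5 (95% interval -0.65 to 0.99) and -0.08 for Myc (-0.47 to 0.31), and PGE and misoprostol differed by 0.14 for Myc (-0.25 to 0.54, misoprostol minus PGE). Rivenprost minus sulprostone was 0.52 for Myc (0.13 to 0.91, adjusted p = 0.369).

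A wider list of other Wnt genes was read in the same fits, of which 76 were in the HSC table and 102 in stroma, and 8 of them passed in a comparison with a control. In HSC 1 of 76 passed after rivenprost and 1 of 76 after both agonists, where 0.494% and 0.545% of all genes did. In stroma 1 of 102 passed with irradiation (0.771% of all genes), 4 after PGE without irradiation (3.76%), 1 after PGE with irradiation (1.98%), 1 after rivenprost (1.13%) and 4 after both agonists (3.09%), shares near those of all genes. The HSC calls were of Fzd9, a Frizzled receptor gene. Vehicle libraries held 8.15, 19.98, 18.6 and 10.48 CPM and sulprostone libraries 15.2, 16.5, 25.2 and 19.6 CPM. Rivenprost libraries held 41.8, 48.0, 67.5 and 44.7 CPM and both-agonist libraries 31.2, 42.0, 48.9 and 41.5 CPM. Misoprostol libraries held 49.0, 37.3, 36.3 and 30.8 CPM. The groups given rivenprost, both agonists or misoprostol lay above vehicle and above sulprostone with no overlap. Fzd9 rose by 1.81 on the log2 scale after rivenprost (SE 0.30, adjusted p = 0.00327) and by 1.51 after both agonists (SE 0.30, adjusted p = 0.0167). The change of 1.41 after misoprostol did not pass (adjusted p = 0.0511), nor did it with RLE scaling (0.0508) or in a fit of the 2 groups alone. It passed with DESeq2 (0.000348), without the sex term (0.0383) and with the block for mouse-number runs (0.0180). Rivenprost also exceeded sulprostone (1.40, adjusted p = 0.0472, where 0.332% of all genes passed). The rivenprost call held without each library in turn, and the call for both agonists ended in 5 of 8 such fits (vehicle replicate 1 or 4, both-agonist replicate 2, 3 or 4, adjusted p up to 0.0830). Both ended in fits of the 2 groups alone (0.0579 and 0.215). Without the 3 HSC libraries named above, misoprostol passed for Fzd9 (0.0311) and the call of rivenprost against sulprostone ended (0.114).

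**Figure D4:**
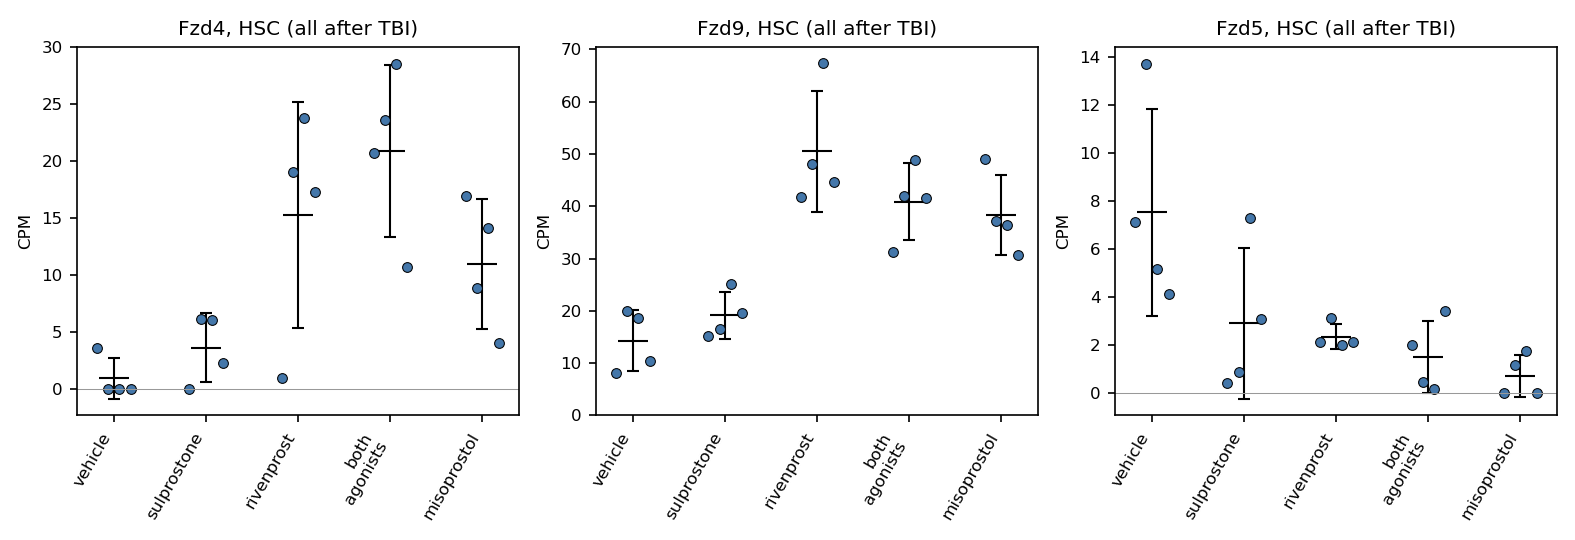
CPM of Fzd4, Fzd9 and Fzd5 in each HSC library (points, 4 per group), with the mean (line) and SD (bars). Fzd9 after rivenprost, both agonists and misoprostol lies above every vehicle library, Fzd4 is at 0 in 3 of 4 vehicle libraries, and Fzd5 is lower than vehicle in every rivenprost and misoprostol library.

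In stroma the largest change of the wider list was in Dact1, whose product binds Dishevelled and dampens its signal. Non-irradiated vehicle libraries held 20.3, 24.8, 40.4 and 100.7 CPM and PGE libraries 8.14, 5.20, 6.23 and 16.4 CPM. Irradiated vehicle libraries held 11.1, 66.2, 22 and 11.4 CPM and PGE libraries 6.04, 5.99, 4.02 and 5.22 CPM. Rivenprost libraries held 4.17, 4.54, 10.2 and 5.93 CPM, both-agonist libraries 4.58, 3.26, 4.13 and 3.56 CPM, misoprostol libraries 9.61, 8.01, 4.06 and 7.49 CPM and sulprostone libraries 6.60, 12.9, 11.6 and 10.8 CPM. All these groups but sulprostone lay below their vehicle with no overlap.

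Dact1 fell by 2.37 on the log2 scale after PGE without irradiation (adjusted p = 0.00780), by 2.38 after PGE with irradiation (adjusted p = 0.0145), by 2.15 after rivenprost (adjusted p = 0.0368) and by 2.83 after both agonists (adjusted p = 0.00302). It stood at -1.92 after misoprostol (adjusted p = 0.0784) and passed for misoprostol with DESeq2 (0.00725). For misoprostol it did not pass with RLE scaling (0.0815), without the sex term (0.0708), with the block for mouse-number runs (0.0678) or in a fit of the 2 groups alone (0.348). After sulprostone it stood at -1.40 (unadjusted p = 0.0105). The call for both agonists held without each library in turn. The others ended without non-irradiated vehicle replicate 4 (0.0853), without irradiated vehicle replicate 2 or PGE replicate 1 (up to 0.140), and for rivenprost in 6 of 8 fits (irradiated vehicle replicate 2 or 3, or any rivenprost replicate, up to 0.287). All 4 Dact1 calls ended in fits of the 2 groups alone, with adjusted p of 0.0868, 0.108, 0.225 and 0.0629 in the order PGE without and with irradiation, rivenprost and both agonists. Vehicle replicate 2 and non-irradiated vehicle replicate 4, where Dact1 was highest, were also highest in mesenchymal markers of their groups, and with that sum as a covariate the log2 fold changes of these 4 comparisons lay between -2.30 and -1.72 (adjusted p up to 0.00382). That of misoprostol was -1.92 and then passed (adjusted p = 0.00125).

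Cby1, which binds beta-catenin and restrains it, moved both with irradiation and with the agonists. It stood at 26.7, 25.9, 22.5 and 18.6 CPM in non-irradiated and at 35.4, 47.8, 30.8 and 41.1 CPM in irradiated vehicle stroma, and at 25.0, 27.1, 19.9 and 24.0 CPM after both agonists. The irradiated vehicle libraries lay above all libraries of the other 2 groups. The log2 fold change was 0.73 for irradiation (adjusted p = 0.0395) and -0.69 for both agonists (adjusted p = 0.0250), and both share the irradiated vehicle mice. These calls ended in 6 and 5 of 8 fits that left out a library (every vehicle replicate of both groups but irradiated replicate 3 and non-irradiated replicate 1, and both-agonist replicate 1, 3 or 4 or vehicle replicate 2 or 4). Both ended in fits of the 2 groups alone (0.174 and 0.0657), and that for irradiation with the mesenchymal marker sum as a covariate (0.0622).

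**Figure D5:**
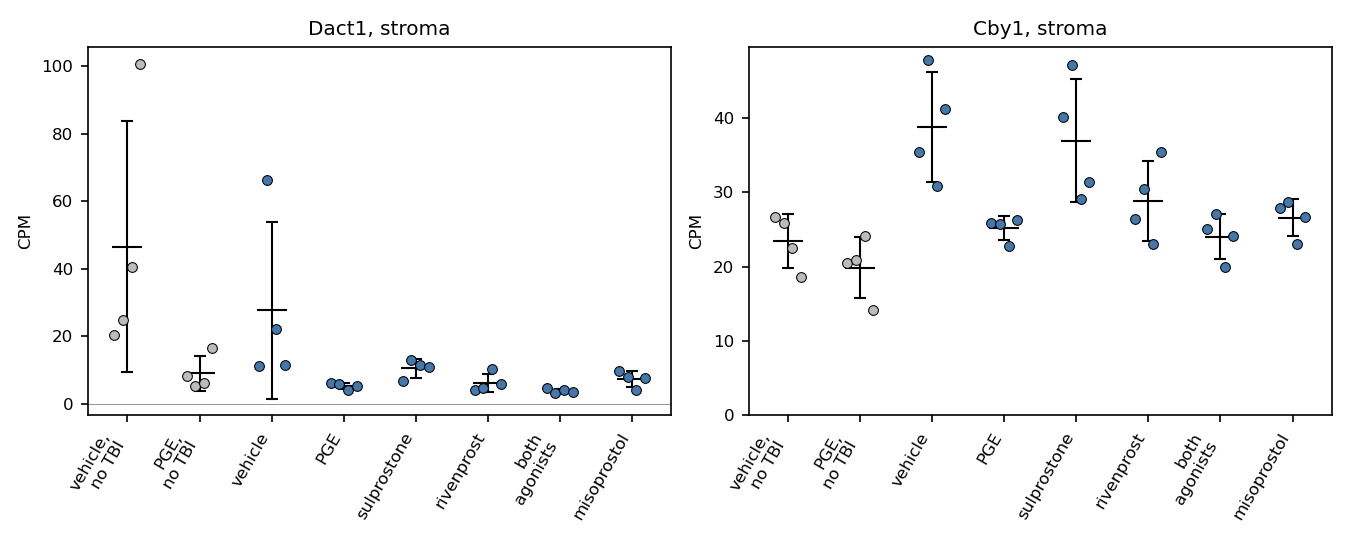
CPM of Dact1 and Cby1 in each stroma library (points, 4 per group, grey without and blue with TBI), with the mean (line) and SD (bars). Dact1 lies below vehicle after PGE, rivenprost, both agonists and misoprostol, and Cby1 lies higher in irradiated than in non-irradiated vehicle.

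The other calls of the wider list were smaller. After PGE without irradiation, Csnk1a1, a kinase that primes beta-catenin for degradation, rose by 0.37 (adjusted p = 0.0215), and Pygo2, a nuclear cofactor of beta-catenin, fell by 0.45 (adjusted p = 0.00648), as did Amer1, a scaffold that binds Apc, by 0.62 (adjusted p = 0.0312). After both agonists, Tle3, a co-repressor of TCF factors, rose by 0.53 (adjusted p = 0.00812), from 86.7, 76.9, 83.9 and 89.7 CPM to 114.7, 148, 120.7 and 107 CPM. Mapk8, a kinase of the planar polarity branch, rose by 0.51 (adjusted p = 0.0146). The Pygo2 call held without each library in turn. The Csnk1a1 and Amer1 calls each ended without non-irradiated vehicle replicate 2, 3 or 4 or PGE replicate 1 or 3. The Mapk8 call ended without irradiated vehicle replicate 2 or 3 or both-agonist replicate 1 or 2, and the Tle3 call without irradiated vehicle replicate 2 (adjusted p = 0.0517). In fits of the 2 groups alone all 5 calls ended, with adjusted p of 0.327 for Pygo2, 0.430 for Csnk1a1, 0.170 for Amer1, 0.0834 for Tle3 and 0.0811 for Mapk8.

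Sex, a labelled factor balanced within each group, was read from the same model after the values of Sfrp2 had been seen. Sfrp2, a secreted Frizzled-related protein gene, stood between 5.88 and 58.2 CPM in the 16 female stroma libraries (median 12.5) and between 0.365 and 3.32 CPM in the 16 male ones (median 1.27). No male library reached the lowest female library in any of the 8 groups. It was higher in females by 3.41 on the log2 scale (SE 0.33, adjusted p = 9.28e-08). Each run of mouse numbers held mice of 1 sex, so sex and run cannot be told apart. The sex term took the mice as independent. In stroma, 26 of 32 libraries still correlated most with their own run once group and sex means were removed. The p-values of the sex term, also those below, thus do not measure the spread between runs. Of the 41 genes 3 passed the sex term in stroma, as did 2.87% of all genes, and 1 of the 41 had no overlap between the sexes, as did 0.145% of all genes. The others that passed were Dkk3, higher in females (median 18.4 against 9.07 CPM, log2 difference 1.11, adjusted p = 0.00699), and Myc, lower in females (-0.34, adjusted p = 0.0476). In HSC 0 of 29 passed the sex term, against 0.0663% of all genes at the same adjusted p. Chondrocyte and fibroblast markers summed to medians of 583 CPM in female and 312 CPM in male stroma, and osteoblast markers to 5084 and 3752 CPM. The mesenchymal markers went the other way, with medians of 8297 CPM in female and 10442 CPM in male stroma. The part of these cell types in the difference was not tested.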

How the data were processed

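RNA counts per gene were read from 20 HSC and 32 stroma libraries. The submitters' processing notes list STAR 2.5, Subread 1.5.1 (featureCounts), FastQC 0.11.5, build mm10 and edgeR 3.36.0. No source used here gives the strand setting, so overlapping and antisense genes cannot be told apart. The values tested were the raw counts the authors deposited, unnormalised per the file headers. The log2 fold changes and FDR (adjusted p-values) deposited by the authors are used only where the authors' deposited table is named, and the 52 columns of log2 CPM were not used. Gene lengths, deposited by the authors, scale levels per kilobase.

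HSC input was 1 ng of RNA (SMART-Seq v4, Nextera XT) and stroma input 100 ng (KAPA mRNA HyperPrep), per the labels. Counts were tested with edgeR 4.0.16 (R 4.3.3, TMM, robust quasi-likelihood), 1 model per fraction with terms for group and sex, with residual df of 14 (HSC) and 23 (stroma). SE is the absolute log2 fold change over the square root of F. No gene was filtered: filterByExpr removed 0. The procedure was tested on simulated data. P-values of the group comparisons measure the spread between mice, in which the spread between runs of 1 sex remains. Those of the sex term do not measure the spread between runs of mouse numbers. Alternatives were DESeq2 1.42.0, RLE scaling, no sex term, a block for runs of mouse numbers, 2-group fits, single libraries left out, HSC without 3 libraries set apart by earlier results and, added later, a mesenchymal marker covariate.

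The members, wider list and marker lists were chosen with earlier results of these data known. A Wnt gene is given in full where it passed in a comparison with a control, and with its fold change where its unadjusted p was under 0.01 or it is Axin2, Ctnnb1, Lef1, Tcf7, Myc or Ccnd1. Wider-list genes are named where they passed; values named outside this rule (such as Fzd5 in HSC) were chosen after they were seen. Replicates are numbered in accession order. Promoter sequences are from RefSeq, build GRCm38.p6.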

Additional observations from a re-analysis of the deposited data

Results flagged for a closer look

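In 37 groups of 4 libraries of the genes described in full, 5 held a library far from the other 3 by Dixon's ratio, which chance does in about 1 in 20 groups. Fzd4 stood at 3.58 CPM in vehicle HSC replicate 1 and at 0 in the other 3. Fzd6 stood at 3.48 CPM and Fzd7 at 64.3 CPM in non-irradiated vehicle stroma replicate 4. Myc stood at 222 CPM in both-agonist stroma replicate 3, and at 86.9 CPM, lowest of its group, in non-irradiated PGE stroma replicate 4. The change of Myc in stroma with PGE differed by 0.962 on the log2 scale between irradiated and non-irradiated mice, where every irradiated PGE library lay above vehicle; the edgeR interaction test did not pass over all genes (adjusted p = 0.918).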

How the results depend on the processing

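No setting reversed a direction. Calls among the Wnt genes moved as follows, with the share of all genes called in that setting in brackets. With DESeq2, HSC gave 1 call each after sulprostone (0.759%), rivenprost (1.72%) and misoprostol (1.73%) and 3 over the compound pairs (0 in edgeR each), all in Sfrp4, which has counts in few libraries. In stroma DESeq2 gave 2 for irradiation (1.64%), 3 for PGE with irradiation (4.4%), 3 for rivenprost (2.29%) and 3 over the pairs. It also added Fzd2 for both agonists (5.83%) and Fzd1 for misoprostol (2.49%). Runs of mouse numbers hold 1 mouse of each group and mice of 1 sex, but no label says that a run was a batch. Numbers within a run were consecutive with 1 exception. In stroma, 1 run joined the non-irradiated vehicle and PGE replicate 4 mice, whose numbers lie far from the others, to irradiated mice. Each comparison with non-irradiated mice includes 1 or both of these mice. In stroma 31 of 32 libraries had their highest correlation of deviations from the group mean with a library of their own run (median r = 0.291, from -0.399 to 0.756); in HSC 13 of 20 did (median 0.0301). In stroma, libraries of different runs had a median r of -0.0996. The model used throughout held no term for runs, because not every same-run pair passed 0.1. A block does not need every pair to do so, and without it spread between runs of 1 sex stays in the error. With the block, 5.5% of all genes passed after PGE with irradiation against 1.98% without it, and 6.07% against 3.09% after both agonists. Among the stroma comparisons with a control, only sulprostone had a smaller share (0.0791% against 0.105%). A replicate block by these runs in place of sex gave 1 for irradiation (Myc, 1.7%), 2 for PGE without (Fzd7 and Dvl3, 7.59%) and with irradiation (Myc and Fzd5, 5.5%), 2 for rivenprost (Myc and Fzd6, 1.73%) and 5 over the pairs (Fzd5 in 2, Axin1, Apc and Lrp6). The block also added Axin1 for both agonists (6.07%). Without the sex term PGE gave 0 without (3.47%) and with irradiation (1.65%). Fits of 2 groups alone gave 0 for PGE without (0.547%) and with irradiation (1.29%), rivenprost (0.0132%) and both agonists (1.58%). Their only calls among the Wnt genes were Fzd5 and Myc after misoprostol in stroma (adjusted p = 0.01002 and 0.0166, 0.442%). The mesenchymal covariate, added after the data were seen, gave 4 for PGE without (6.32%) and with irradiation (3.5%), 6 for rivenprost (2.78%), 5 for both agonists (5.13%), 4 for misoprostol (2.01%) and 4 over the pairs. Leaving out single libraries gave 0 to 1 for rivenprost, both agonists and misoprostol in HSC, 0 to 1 for irradiation, for PGE in either setting and over the stroma pairs, 0 to 2 for rivenprost and misoprostol, and 1 to 3 for both agonists. The HSC calls were all of Fzd4 without vehicle replicate 1. Shares of all genes are not given for these fits, nor over the pairs in the alternative settings. At 4 mice per group, genes near 0, such as Lef1 in HSC, gave intervals of several log2 units.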
